A study of Mesocricetus auratus with 6 samples.

Results

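The Slc25 genes encode the mitochondrial carriers, the largest family of transporters in the inner mitochondrial membrane, and were measured in BHK21 cells that received either an empty vector or STYK1/NOK. Members were chosen by gene symbol alone: of 16078 genes listed for each library, 41 carried an NCBI Gene ID whose golden hamster symbol begins with Slc25a. BHK21 cells are an established line of fibroblast-like cells from baby hamster kidney, and the labels give the tissue as kidney and the age as 1 day. The control group was transfected with pCMV-Myc, a mammalian expression plasmid, and the other group with STYK1/NOK, a membrane protein with a kinase-like domain that the series calls an oncogene. Each group has 3 libraries, called vector 1 to 3 and STYK1 1 to 3, and RNA was taken 48 after transfection, for which the labels give no unit. They do not say which species the STYK1/NOK sequence came from, how many of the cells took up the plasmid or whether each library had its own culture. The p-values therefore describe the spread of these 6 libraries alone, and that spread may be technical.

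Mitochondrial carriers are small proteins that share a fold of repeated helix pairs around a central binding site. Most of them exchange a solute of the mitochondrial matrix for one of the cytosol by alternating between the 2 faces of the membrane, and so they connect oxidative phosphorylation, the citrate cycle, amino acid, cofactor and iron metabolism with the rest of the cell. They are made in the cytosol and inserted by the TIM22 import route. The values are FPKM, fragments scaled by transcript length and by the mapped fragments of the library, so levels of different genes can be compared per length. No protein or promoter sequence is shown.

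Depth relative to STYK1 1 was estimated from the most frequent FPKM ratio to that library over genes of low FPKM. It lay between 0.979 and 1.03, and absolute depth is unknown, so no counting error is given. Because FPKM is already scaled by the mapped fragments, this ratio can lie near 1 whatever the depth. The estimate was not checked, so equal depth cannot be read from it. Vector 1 stood apart, with Pearson correlations of 0.963 to 0.976 with the other libraries on log2(FPKM + 1) over 11464 genes. It was the highest or the lowest of the 6 libraries for 73.3% of those genes, so the log2 difference of a carrier is also given without it where that changes its sign or moves it by over 1.5 times. Of the 8 mesenchymal markers with a value, Vim lay between 3650.3 and 4141 FPKM, Sparc between 249.8 and 296 FPKM, Fn1 between 191 and 229 FPKM and Pdgfrb between 35.2 and 39.2 FPKM, while Col1a1, Col1a2, Col3a1 and Thy1 had means under 1 FPKM. Of the muscle markers, Des and Myod1 measured at least 539.9 and 248 FPKM in every library. The 5 epithelial markers with a value were at or near 0, with sums of at most 0.400 FPKM. The summed blood and immune markers, nearly all Cd14 and Cd68 with Ptprc, Itgam and Cd3e at or near 0, lay between 518 and 531 FPKM with the vector and between 449 and 509.7 FPKM with STYK1; their part in the results was not tested. The hamster gene Styk1 itself had 1.5, 1.80 and 1.89 FPKM with the vector and 2.04, 2.46 and 2.41 FPKM with STYK1, a log2 difference of 0.28 ± 0.14 (SE) that did not pass the test (limma-trend, adjusted p = 0.47). A two-sided exact permutation test of Styk1 gave p = 0.1, the smallest that 3 libraries against 3 allow.

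The members ranged from barely detected to abundant, and a few carriers held most of the family's transcripts. The ADP/ATP carrier Slc25a5 led with 437 FPKM in vector libraries, followed by the phosphate carrier Slc25a3 with 319 FPKM, the glutathione carrier Slc25a39 with 161 FPKM, the ADP/ATP carrier Slc25a4 with 139.5 FPKM and the oxoglutarate carrier Slc25a11 with 77.3 FPKM. These 5 made up 71.7% of the family's summed FPKM in vector libraries, and Slc25a5 alone 27.7%. Below them came a step to 41.4 FPKM for the peroxisomal carrier Slc25a17, 41.1 FPKM for the citrate carrier Slc25a1, 35.2 FPKM for the iron carrier Slc25a28, 32.3 FPKM for Slc25a46 and 31.5 FPKM for the pyrimidine nucleotide carrier Slc25a33. The order among neighbours there is not resolved, since Slc25a17, Slc25a1 and Slc25a28 had SDs of 4.23, 6.55 and 5.42 FPKM (n = 3 vector libraries each).

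A floor of a mean of 1 FPKM in either group, which decided what was tested, was met by 36 of the 41 members. Slc25a23 met it only through its STYK1 mean. The 5 that did not were Slc25a29, Slc25a35, Slc25a47, Slc25a31 and Slc25a34, with vector means of 0.927, 0.740, 0.280, 0.180 and 0.0767 FPKM, and STYK1 means of at most 0.830 FPKM. Slc25a31 encodes the ADP/ATP carrier of the testis and Slc25a47 a carrier known from liver. The gene table also names Slc25a13, Slc25a21, Slc25a41 and Slc25a53, whose IDs were not among the genes listed for the libraries and so could not be analysed.

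**Figure D1:**
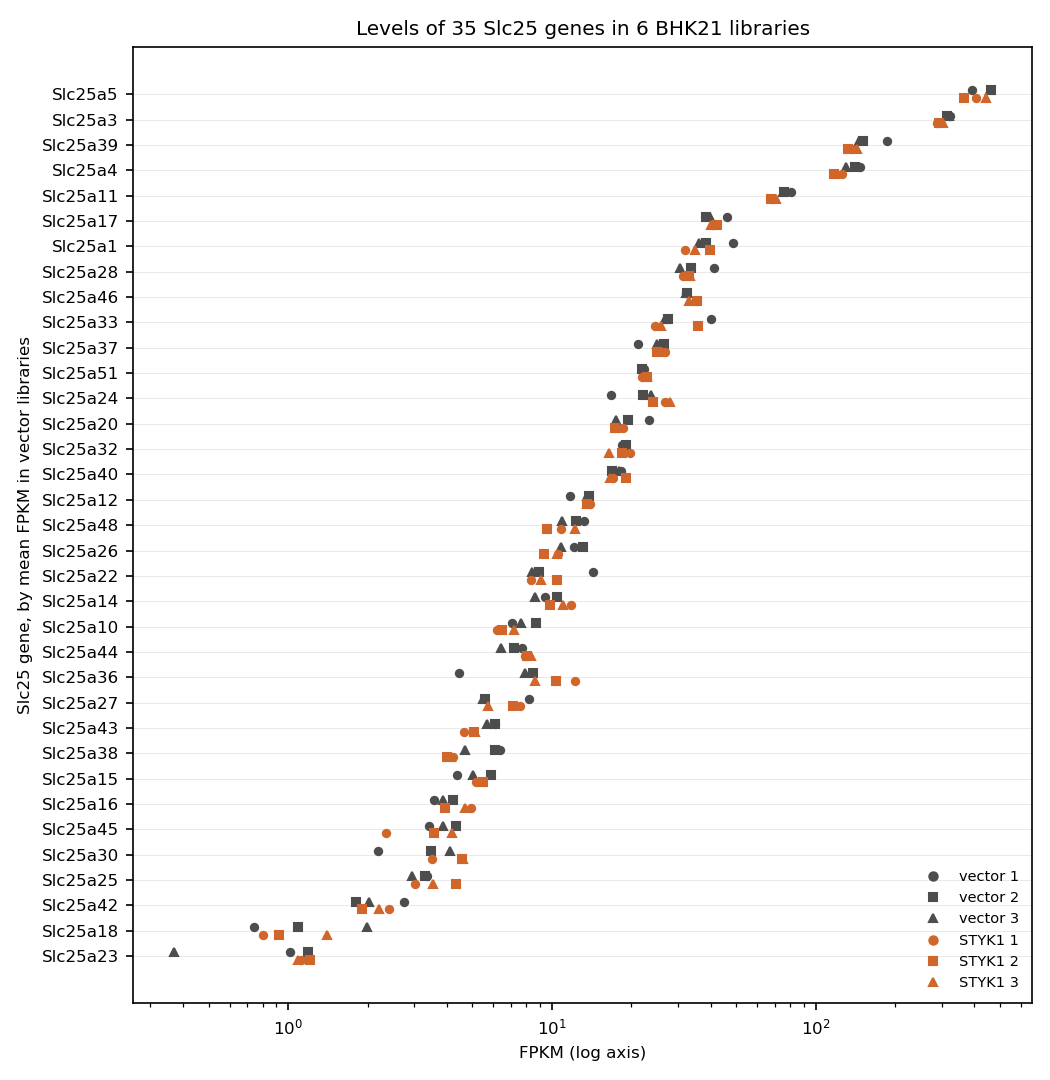
FPKM on a log axis for 35 of the 36 tested Slc25 genes, ordered by their mean in vector libraries; each marker is 1 library, grey for vector and orange for STYK1. Slc25a5, Slc25a3, Slc25a39, Slc25a4 and Slc25a11 stand clear at the top, and vector 1 (grey circles) is often the farthest point of a row, as for Slc25a36 and Slc25a24.

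No Slc25 gene passed the test of STYK1 against vector libraries. The smallest adjusted p among the members was 0.469 (limma-trend on log2(FPKM + 1), Benjamini-Hochberg over 11464 genes), and 0% of all tested genes passed. Before adjustment, 2 members with p under 0.05 were higher in STYK1 libraries (Slc25a36 and Slc25a24) and 2 were lower (Slc25a38 and Slc25a4), 5.56% each way and 11.1% together, beside 4.95% higher, 4.88% lower and 9.84% in all over every tested gene. The members' share is near that background. With libraries scaled to equal FPKM sums the split was 3 higher and 0 lower, beside 11% and 1.9% of all genes. After median centring it was 1 and 4 (all genes 3.51% and 6.65%), and after quantile normalization 2 and 5 (all genes 4.13% and 4.97%).

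All 3 libraries of one group lay above all 3 of the other for 11 of the 36 members, 30.6%, beside 23.1% of all tested genes. Of these, 4 were higher in STYK1 libraries (11.1%, background 13.6%): Slc25a36, Slc25a24, Slc25a44 and Slc25a46. The other 7 were lower (19.4%, background 9.44%): Slc25a3, Slc25a4, Slc25a11, Slc25a39, Slc25a26, Slc25a38 and Slc25a43. Slc25a29, under the floor, was also lower in all 3 STYK1 libraries and measured 1.22, 0.780 and 0.780 FPKM in the vector libraries and 0.450, 0.630 and 0.600 FPKM in the STYK1 libraries. In bulk RNA, fewer cells that express a gene and less of its RNA per cell cannot be told apart. The count of 7 lower depended on the scaling and was 2 with equal FPKM sums, against 6 higher. With that scaling 3.95% of all genes were lower and 24.5% higher without overlap. The lower count was 8 after median centring (all genes 12.5%) and 6 after quantile normalization (all genes 9.26%).

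The members' median log2 difference was -0.069, with 14 above 0 and 22 below, beside a median of 0.014 over all tested genes. Without vector 1 the members' median was 0.0046, with 19 above and 17 below, beside 0.019 over all tested genes. Slc25a23, which met the floor only through its STYK1 mean, is among those above 0 in both counts. Equal FPKM sums moved the median of all genes up by 0.10; relative to the median of all genes, the members' median was -0.076 there and -0.083 without scaling.

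The most abundant carriers lay on the lower side. All 5 members with a vector mean of at least 45 FPKM had lower means in STYK1 libraries, and for 4 of them the groups did not overlap; this level was picked after the values were seen, at the step below Slc25a11. Among all 2343 tested genes at that level, 66.8% lay below 0 and 23.8% were lower without overlap, so genes abundant in vector libraries in general lay lower. The level was set on vector means alone, a choice that by itself can favour lower values in STYK1 libraries. With equal FPKM sums the differences of the 5 carriers were all closer to 0, at -0.0047 for Slc25a5, -0.0024 for Slc25a3, -0.10 for Slc25a39, -0.10 for Slc25a4 and -0.054 for Slc25a11, against -0.12, -0.11, -0.21, -0.21 and -0.16 without scaling. The median of all tested genes was 0.115 with equal sums and 0.014 without scaling. After median centring the 5 differences were further from 0, at -0.14, -0.14, -0.24, -0.23 and -0.19 in the same order. Quantile normalization gave 0.012, 0.012, -0.12, -0.12 and -0.11. Over all genes the median was -0.014 after centring and -0.0019 after quantile normalization. The 31 less abundant tested members were divided, 14 above and 17 below 0, with Slc25a23, near the floor, among those above.

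Summed over the 41 members, the family reached 1603, 1584 and 1554 FPKM in vector 1, 2 and 3 and 1457, 1425 and 1511 FPKM in STYK1 1, 2 and 3. Every STYK1 sum was under every vector sum, and the means were 1580.3 ± 24.4 and 1464 ± 43.1 FPKM (SD, n = 3 each), a ratio of 0.927. As a share of each library's total FPKM the order was lost: the family took 0.259, 0.286 and 0.279% in the vector libraries and 0.276, 0.269 and 0.278% in the STYK1 libraries. Vector 1, whose total FPKM was the largest, had the largest Slc25 sum and the smallest Slc25 share.

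**Figure D2:**
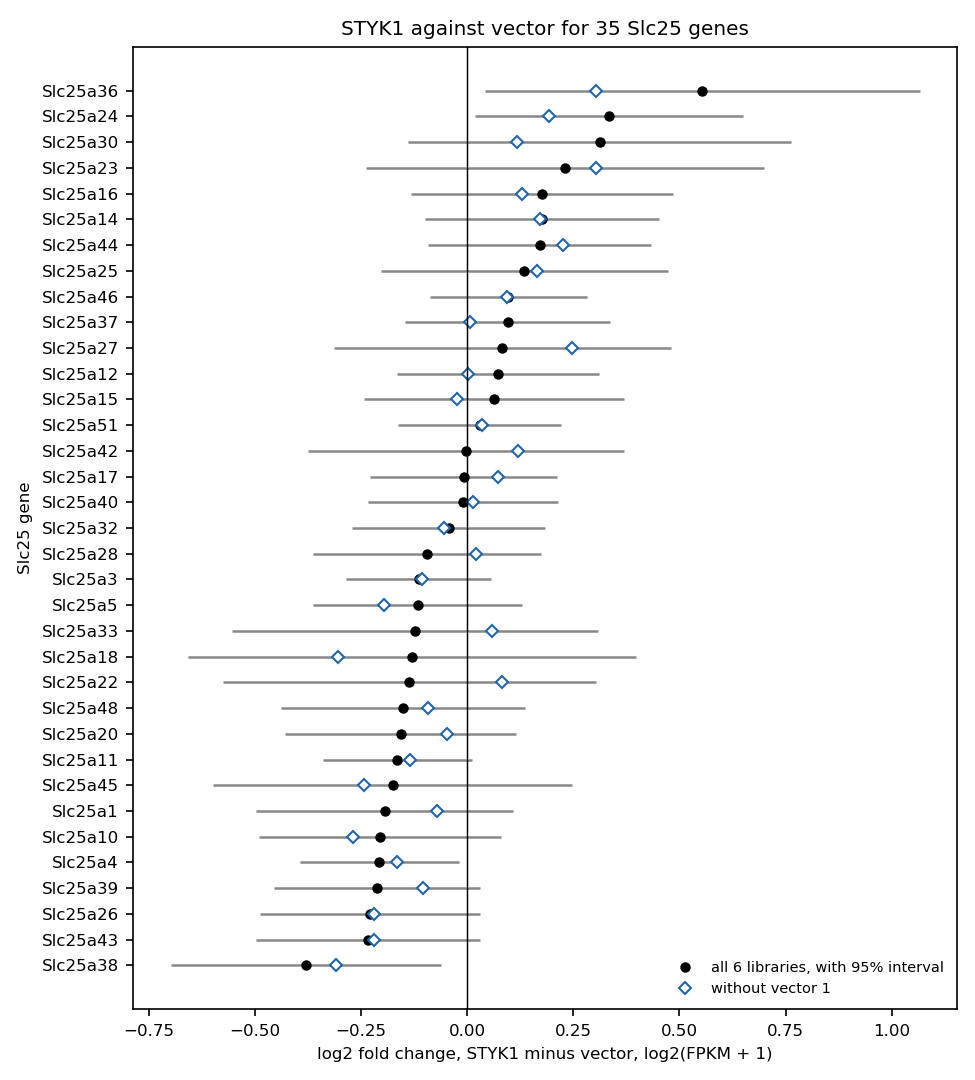
Log2 difference between STYK1 and vector libraries for 35 of the 36 tested Slc25 genes, each with its 95% interval from limma-trend (grey line) over all 6 libraries (black) and the value without vector 1 (blue diamonds). Only Slc25a36, Slc25a24, Slc25a38 and Slc25a4 have intervals that leave out 0 before adjustment over all genes, and for Slc25a36 and Slc25a24 the diamond lies well inside the black point.

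The carriers that serve ATP synthesis exchange ADP for ATP and bring in phosphate. The 7 tested members of this group, including the peroxisomal relative Slc25a17, had a median log2 difference of -0.0075, 0.073 without vector 1 and -0.11 to 0.10 over all 15 alternatives, and -0.061 when Slc25a23, near the floor, was left out. In the sentences on single genes, values follow the order of libraries 1, 2 and 3, means are given ± SD with n = 3 in each group, vector before STYK1, and a log2 difference is STYK1 minus vector on log2(FPKM + 1). Slc25a5, the ADP/ATP carrier typical of dividing cells, measured 390.5, 463 and 459 FPKM in the vector libraries and 404, 365 and 441 FPKM in the STYK1 libraries. The groups overlapped, with vector 1 the lowest of its group, and the log2 difference was -0.12 ± 0.11 (SE), or -0.20 without vector 1. Many mammalian genomes hold processed pseudogenes of Slc25a5, and the sources used here do not say how shared reads were counted, so its level is uncertain. Slc25a4, the ADP/ATP carrier of heart and skeletal muscle, measured 148, 140.4 and 131 FPKM in the vector libraries and 126, 117 and 119 FPKM in the STYK1 libraries. All its STYK1 values lay under all its vector values; the means were 139.5 ± 8.61 against 121 ± 4.92 FPKM and the log2 difference -0.21 ± 0.082 (SE), with an unadjusted p of 0.0352 and an adjusted p of 0.469 (limma-trend). The summed FPKM of the 4 muscle markers also did not overlap, at 861 to 1014 with the vector and 804 to 830.2 with STYK1. Taken singly, Des did not overlap (559 to 702 against 540 to 554 FPKM), Myod1 and Ckm did, and Acta1 was at or near 0. The part of these markers in the result was not tested. Of the summed FPKM of Slc25a4, Slc25a5 and Slc25a31, Slc25a5 made up 72.5, 76.7 and 77.8% in the vector libraries and 76.2, 75.7 and 78.8% in the STYK1 libraries, so the balance between the ADP/ATP carriers overlapped between groups.

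Slc25a3, which carries phosphate and copper into the matrix, measured 323, 314 and 319.9 FPKM in the vector libraries and 287, 293 and 303 FPKM in the STYK1 libraries. It was among the steadiest members, with an SD of 1.45% of the mean in vector libraries, and its small difference of -0.11 ± 0.074 (SE) separated the groups without passing the test (adjusted p = 0.498, limma-trend). After quantile normalization the differences of Slc25a5 and Slc25a3 had the other sign, at 0.012 and 0.012.

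Slc25a24 encodes a calcium-regulated carrier that exchanges ATP-Mg for phosphate and so sets the size of the adenine nucleotide pool in the matrix. It measured 16.8, 22.1 and 23.8 FPKM in the vector libraries and 26.8, 24.1 and 28.1 FPKM in the STYK1 libraries. All STYK1 libraries were above all vector libraries, and vector 1 was the lowest by a wide margin. The log2 difference of 0.33 ± 0.14 (SE) (unadjusted p = 0.0399, adjusted p = 0.469, limma-trend) became 0.19 without vector 1. Its relatives Slc25a25 and Slc25a23 were scarce, with means of 3.20 ± 0.231 against 3.64 ± 0.650 FPKM and 0.860 ± 0.433 against 1.14 ± 0.0624 FPKM. Of the summed FPKM of these 3 carriers, Slc25a24 accounted for 79.2, 83.1 and 87.8% in the vector libraries and 86.6, 81.3 and 85.8% in the STYK1 libraries, and the groups overlapped. The peroxisomal cofactor carrier Slc25a17 measured 46.2, 38.3 and 39.6 FPKM in the vector libraries and 40.7, 42.4 and 40.0 FPKM in the STYK1 libraries, with groups that overlapped and a difference of -0.0075 ± 0.10 (SE), or 0.073 without vector 1.

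The di- and tricarboxylate carriers link the citrate cycle to the cytosol. Slc25a11 exchanges oxoglutarate for malate and is a limb of the malate-aspartate shuttle. It measured 80.5, 76.0 and 75.4 FPKM in the vector libraries and 68.2, 67.4 and 70.9 FPKM in the STYK1 libraries, with no overlap, means of 77.3 ± 2.81 against 68.9 ± 1.83 FPKM and a log2 difference of -0.16 ± 0.076 (SE) (adjusted p = 0.469, limma-trend). Slc25a1, which exports citrate for fatty acid and sterol synthesis, measured 48.5, 38.5 and 36.2 FPKM in the vector libraries and 32.0, 39.9 and 34.9 FPKM in the STYK1 libraries. Its groups overlapped and vector 1 was the highest; the difference was -0.19 ± 0.13 (SE), or -0.07 without vector 1. Slc25a10, the carrier of malate and succinate, had means of 7.79 ± 0.859 against 6.61 ± 0.494 FPKM with overlapping groups. All 3 of these carriers had lower means in STYK1 libraries, with a median log2 difference of -0.19, -0.13 without vector 1 and -0.22 to -0.084 over all 15 alternatives.

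The amino acid carriers were of middle or low abundance, and their directions were divided, 3 above and 3 below 0 among 6 tested, with a median log2 difference of -0.033, -0.011 without vector 1 and -0.13 to 0.073 over all 15 alternatives, so its sign was not stable. Slc25a38 imports glycine for the first step of heme synthesis. It measured 6.35, 6.06 and 4.68 FPKM in the vector libraries and 4.20, 4.02 and 4.13 FPKM in the STYK1 libraries. The STYK1 values were tightly grouped under all vector values, of which vector 3 was the lowest, and the means were 5.70 ± 0.892 against 4.12 ± 0.0907 FPKM. Its log2 difference of -0.38 ± 0.14 (SE) had the smallest unadjusted p of the family, 0.0249, and an adjusted p of 0.469 (limma-trend). That p ranked 445 of 11464 tested genes. Slc25a44, a carrier of branched-chain amino acids, measured 7.73, 7.17 and 6.39 FPKM in the vector libraries and 7.94, 8.03 and 8.31 FPKM in the STYK1 libraries, higher in all STYK1 libraries by 0.17 ± 0.12 (SE) on the log2 scale (adjusted p = 0.508, limma-trend).

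Slc25a12, the aspartate-glutamate carrier of the malate-aspartate shuttle, measured a mean of 13.0 FPKM with the vector and 13.7 FPKM with STYK1, a log2 difference of 0.073, or 0.0026 without vector 1. Glutamate itself enters through Slc25a22 and Slc25a18, which measured 10.5 ± 3.23 against 9.29 ± 1.08 FPKM and 1.27 ± 0.645 against 1.04 ± 0.317 FPKM. Slc25a22 was highest in vector 1, at 14.3 FPKM, and its log2 difference of -0.14 ± 0.19 (SE) was 0.083 without that library. For Slc25a18 the difference of -0.13 was -0.30 without it. The ornithine carrier Slc25a15 measured a mean of 5.09 FPKM with the vector and 5.33 FPKM with STYK1, a difference of 0.064 that was -0.024 without vector 1. Slc25a29, a carrier of basic amino acids, was under the floor.

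Carriers of cofactors, nucleotides and glutathione formed the most numerous group, with 10 tested members and a median log2 difference of -0.026, 0.024 without vector 1 and -0.083 to 0.07 over all 15 alternatives. Slc25a39 brings glutathione into the matrix and measured 186, 151 and 146 FPKM in the vector libraries and 138, 133 and 144 FPKM in the STYK1 libraries. No values overlapped between groups, but vector 1 was far above the rest, and the difference of -0.21 ± 0.11 (SE) became -0.10 without it. Its relative Slc25a40 measured 17.7 ± 0.707 against 17.6 ± 1.30 FPKM, a log2 difference of -0.0096, or 0.013 without vector 1. Of the pair's summed FPKM, Slc25a39 made up 91.1, 89.9 and 89.1% in the vector libraries and 89.0, 87.4 and 89.6% in the STYK1 libraries, with overlapping groups.

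Slc25a36 and Slc25a33 both carry pyrimidine nucleotides, and vector 1 was an extreme library for both, in opposite directions. Slc25a36 measured 4.46, 8.48 and 7.91 FPKM in the vector libraries and 12.3, 10.4 and 8.65 FPKM in the STYK1 libraries, with every STYK1 library above every vector library but STYK1 3 only just above vector 2. Its log2 difference of 0.55 ± 0.22 (SE) was the largest of the family (unadjusted p = 0.037, adjusted p = 0.469, limma-trend), and it was 0.30 without vector 1, the lowest library. Slc25a33 measured 40.1, 27.6 and 26.8 FPKM in the vector libraries and 24.7, 35.8 and 25.8 FPKM in the STYK1 libraries. It was high in vector 1 and in STYK1 2, the groups overlapped, and the difference of -0.12 ± 0.19 (SE) had the other sign without vector 1, at 0.058. The share of Slc25a36 in the sum of both was 10.02, 23.5 and 22.8% in the vector libraries and 33.2, 22.5 and 25.1% in the STYK1 libraries; vector 1 had the lowest share, STYK1 1 the highest, and the groups overlapped.

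Slc25a51, which carries NAD+ into mitochondria, varied little between libraries. It measured 22.4, 21.9 and 22.2 FPKM in the vector libraries and 22.0, 23.0 and 23.0 FPKM in the STYK1 libraries, a log2 difference of 0.029 ± 0.084 (SE) with a 95% interval of -0.16 to 0.22. Slc25a26 carries S-adenosylmethionine, the methyl donor for mitochondrial RNA and proteins. It measured 12.2, 13.1 and 10.8 FPKM in the vector libraries and 10.5, 9.37 and 10.4 FPKM in the STYK1 libraries, lower in all STYK1 libraries with vector 3 only just above STYK1 1. Its log2 difference was -0.23 ± 0.11 (SE) (adjusted p = 0.469, limma-trend). The folate and FAD carrier Slc25a32 measured 18.8 ± 0.340 against 18.2 ± 1.63 FPKM. Slc25a16 and Slc25a42, both linked to coenzyme A, measured 3.89 ± 0.330 against 4.53 ± 0.520 FPKM and 2.20 ± 0.497 against 2.18 ± 0.252 FPKM; the log2 difference of Slc25a42 was -0.0024, or 0.12 without vector 1.

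**Figure D3:**
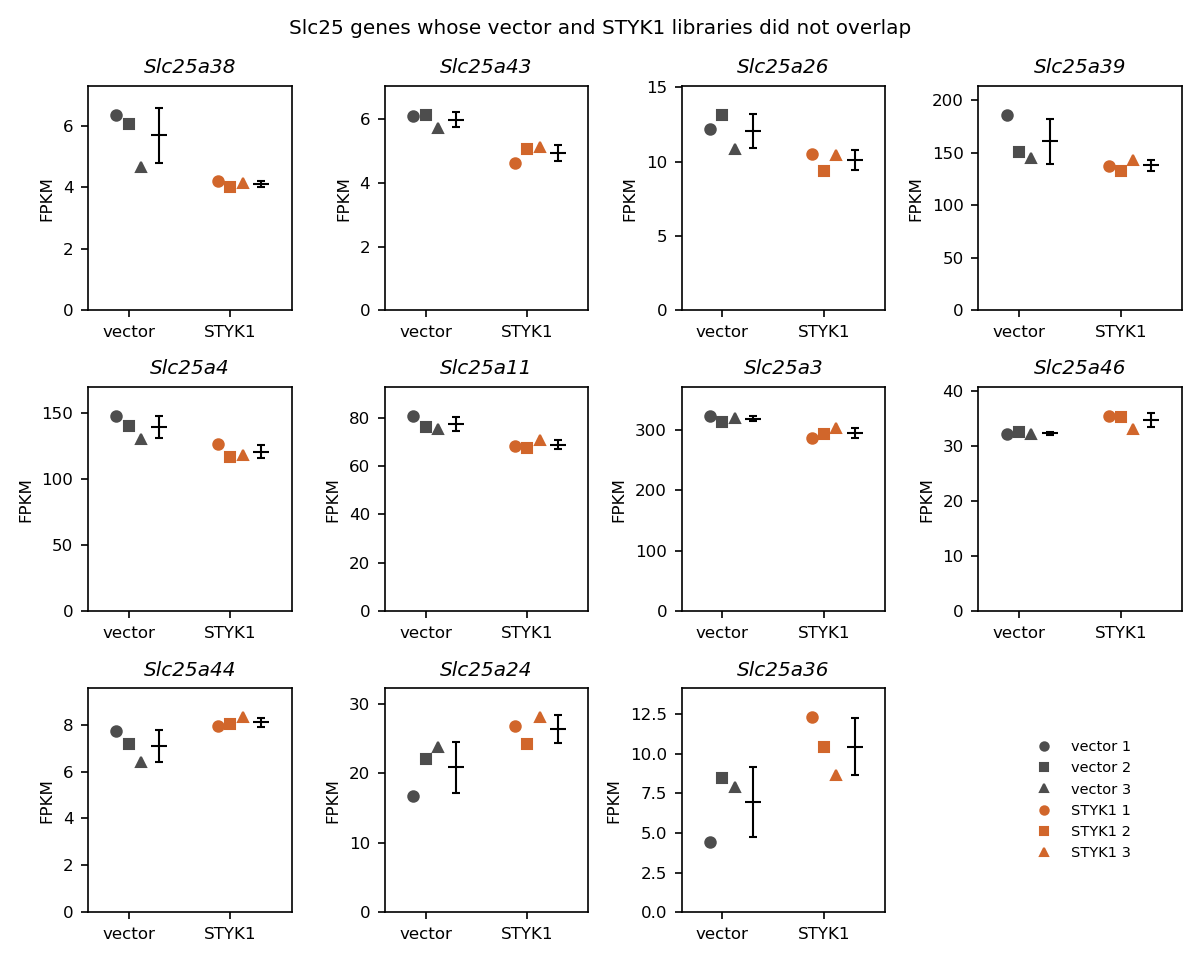
FPKM, on axes that start at 0, of the 11 tested Slc25 genes whose vector (grey) and STYK1 (orange) libraries did not overlap; each marker is 1 library, and the bar beside each group is the mean ± SD (n = 3). The 7 genes from Slc25a38 to Slc25a3 are lower and the 4 from Slc25a46 to Slc25a36 higher in STYK1 libraries; for Slc25a24 and Slc25a36 vector 1 is the lowest library, at 16.8 and 4.46 FPKM.

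The mitoferrins bring iron to the matrix for heme and iron-sulphur clusters. Slc25a28, mitoferrin 2, the form of most tissues, measured 41.2, 33.7 and 30.7 FPKM in the vector libraries and 31.4, 33.1 and 33.4 FPKM in the STYK1 libraries. Slc25a37, mitoferrin 1, best known from red cell precursors, measured 21.3, 26.6 and 25.1 FPKM in the vector libraries and 26.8, 24.9 and 26.1 FPKM in the STYK1 libraries. Both overlapped between groups. Vector 1 was the highest library for Slc25a28 and the lowest for Slc25a37, and without it the differences of -0.094 ± 0.12 (SE) and 0.10 ± 0.11 (SE) were 0.022 and 0.0065. Of the pair's summed FPKM, Slc25a28 made up 65.9, 55.9 and 55.0% in the vector libraries and 54.0, 57.1 and 56.1% in the STYK1 libraries, so that vector 1 alone stood apart.

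Slc25a20, which takes acylcarnitines into mitochondria for fatty acid oxidation, measured 23.4, 19.4 and 17.5 FPKM in the vector libraries and 18.6, 17.4 and 17.4 FPKM in the STYK1 libraries. The groups overlapped and vector 1 was the highest; the difference was -0.16 ± 0.12 (SE), or -0.048 without vector 1. The 3 carriers related to uncoupling proteins all had higher means in STYK1 libraries: Slc25a14 at 9.53 ± 0.937 against 10.9 ± 0.995 FPKM, Slc25a27 at 6.42 ± 1.54 against 6.80 ± 0.961 FPKM and Slc25a30 at 3.27 ± 0.979 against 4.23 ± 0.612 FPKM. In each of them the groups overlapped, and none passed the test (adjusted p = 0.513, 0.824 and 0.492, limma-trend). Without vector 1 their differences were 0.17, 0.25 and 0.12, against 0.18, 0.083 and 0.31 with it.

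Slc25a46 sits in the outer membrane and takes part in mitochondrial fission, fusion and cristae shape. It measured 32.1, 32.6 and 32.1 FPKM in the vector libraries and 35.4, 35.3 and 33.2 FPKM in the STYK1 libraries. Its vector libraries were the closest of all members (SD 0.849% of the mean), all STYK1 libraries lay above them, and the difference was 0.10 ± 0.081 (SE) (adjusted p = 0.571, limma-trend). Slc25a43 measured 6.10, 6.11 and 5.70 FPKM in the vector libraries and 4.63, 5.05 and 5.11 FPKM in the STYK1 libraries, lower in all STYK1 libraries, with a log2 difference of -0.23 ± 0.12 (SE) (adjusted p = 0.469, limma-trend). Slc25a48 and Slc25a45 measured 12.2 ± 1.13 against 10.9 ± 1.35 FPKM and 3.87 ± 0.455 against 3.37 ± 0.931 FPKM, with overlapping groups in both; the log2 difference of Slc25a48 was -0.15, or -0.093 without vector 1.

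**Figure D4:**
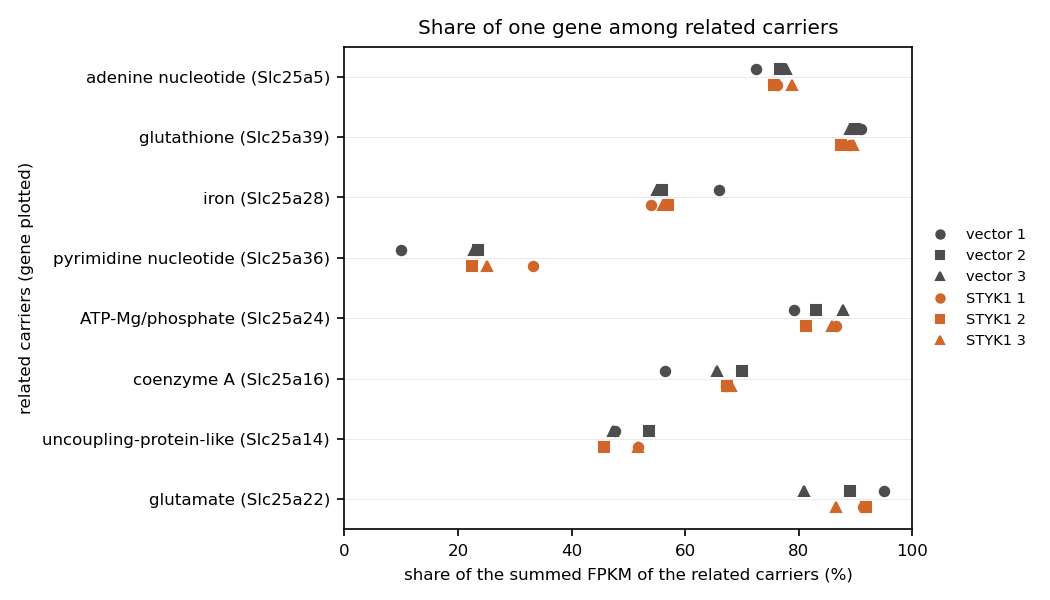
Share of 1 gene in the summed FPKM of its related carriers, in percent, for 8 sets; each marker is 1 library, grey for vector and orange for STYK1. The groups overlap in every set, and vector 1 (grey circles) lies at an end of the row for Slc25a5, Slc25a39, Slc25a28, Slc25a36, Slc25a24, Slc25a16 and Slc25a22.

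Shares within the other sets also overlapped between groups: Slc25a16 held 64.0 ± 6.95% against 67.6 ± 0.403% of its sum with Slc25a42, and Slc25a22 88.4 ± 7.10% against 89.9 ± 2.88% of its sum with Slc25a18. Slc25a14 held 49.5 ± 3.58% against 49.7 ± 3.40% of its sum with Slc25a27 and Slc25a30.

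Spread within a group differed widely between members. Among the 12 most abundant, the SD in vector libraries ran from 0.849% of the mean for Slc25a46 to 23.6% for Slc25a33. Vector 1 was the highest library for 15 and the lowest for 9 of the 36 tested members (66.7% together), near its share over all genes. When it was left out, the difference had the other sign for 7 tested members, was smaller by over 1.5 times for 10, larger by over 1.5 times for 3 and stayed within 1.5 times for 16. At an unadjusted p under 0.05 there were then 0 higher and 5 lower members, namely Slc25a4, Slc25a5, Slc25a10, Slc25a11 and Slc25a38, beside 4.91% higher and 4.54% lower of all genes, and again none passed the test (smallest adjusted p = 0.504, limma-trend).

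Genes that work beside the carriers were read from 7 lists written by function: other mitochondrial transporters, carrier-like genes under other symbols, the carrier import route, and enzymes of the shuttles, of carnitine, of iron-sulphur and heme synthesis and of mitochondrial folate. Of 57 tested genes in them, 0 passed over all genes. With p under 0.05 before adjustment, 0 were higher and 7 lower (12.3%, background 4.88%): Mpc1, Mpc2, Smdt1, Tspo, Timm10b, Idh1 and Glrx5. The log2 difference of Tspo was -0.32, or -0.16 without vector 1. The groups did not overlap for 15 lower (26.3%, background 9.44%) and 2 higher genes (3.51%, background 13.6%), and the median log2 difference was -0.066, -0.059 without vector 1. Apart from the number that passed, how the counts and the median of these lists depend on the scaling of the libraries was not examined. Of the 57, 24 had a vector mean of at least 45 FPKM. Of these, 14 were lower without overlap (58.3%, beside 23.8% of all genes at that level) and 7 were lower at an unadjusted p under 0.05 (29.2%, beside 12.8%). That level was picked after the carriers' values were seen, and the lists were chosen with earlier results of these data known. These shares are therefore a description only. Mpc1 and Mpc2, the subunits of the pyruvate carrier, which is no Slc25 protein, form a heterodimer. Mpc1 measured 61.3, 58.8 and 58.6 FPKM in the vector libraries and 45.9, 51.5 and 47.4 FPKM in the STYK1 libraries. Mpc2 measured 114, 94.3 and 92.2 FPKM in the vector libraries and 75.1, 75.7 and 71.6 FPKM in the STYK1 libraries. Both were lower in all STYK1 libraries, with log2 differences of -0.30 ± 0.082 (SE) and -0.42 ± 0.10 (SE) and unadjusted p of 0.00615 and 0.00253 (limma-trend, adjusted p = 0.469 for both). Smdt1, a subunit of the mitochondrial calcium uniporter, measured 86.4, 66.2 and 74.8 FPKM in the vector libraries and 51.2, 56.9 and 61.4 FPKM in the STYK1 libraries, lower in all STYK1 libraries, with a log2 difference of -0.41 ± 0.12 (SE).

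In the import route, the small chaperone gene Timm10b measured 90.3, 72.4 and 69.4 FPKM in the vector libraries and 52.9, 58.7 and 56.5 FPKM in the STYK1 libraries, lower in all STYK1 libraries, with a log2 difference of -0.45 ± 0.11 (SE). The import receptor Tomm70 measured 67.2 ± 7.53 against 73.1 ± 1.23 FPKM, a log2 difference of 0.12, or 0.031 without vector 1. Of the shuttle enzymes, Idh1, the cytosolic isocitrate dehydrogenase, measured 94.4, 86.4 and 73.8 FPKM in the vector libraries and 65.9, 66.4 and 63.2 FPKM in the STYK1 libraries, and Mdh2, the mitochondrial malate dehydrogenase, 271 ± 13.9 against 236 ± 17.3 FPKM. Glrx5, which hands on iron-sulphur clusters, measured 345 ± 31.9 against 288 ± 6.24 FPKM. Mtch1 and Mtch2, carrier-like proteins of the outer membrane, measured 83.9 ± 1.38 against 77.5 ± 4.76 FPKM and 96.2 ± 2.58 against 88.9 ± 4.76 FPKM, and the uncoupling protein gene Ucp2 was listed at 0 in 3 libraries and at no more than 0.290 FPKM in the others.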

How the data were processed

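A total of 6 libraries of RNA from BHK21 cells were analysed, made with Trizol and an Illumina TruSeq kit (1 ug of input) per the labels' protocols. The values the authors deposited are FPKM, per the file headers, written with 2 decimals. Bowtie 0.12.2 and the builds mm8 and mm9 are named, without a role, in the submitters' processing notes; the sources used here do not name the FPKM program, its annotation or any use of strand. Files were tied to samples by the series' record and samples to groups by treatment. Of 16078 IDs, 15049 matched the RefSeq gene table of BCM_Maur_2.0, used for names only; the other 1029 could hold further members. Genes whose mean reached 1 FPKM in either group were tested with limma-trend (limma 3.58.1, R 4.3.3, robust) on log2(FPKM + 1), with Benjamini-Hochberg adjustment over all tested genes; on that scale the differences of low genes are understated. Depth was estimated from genes at 0.8 to 6 FPKM. The members, lists and settings were chosen with earlier results of these data known. Values per library were given for the 12 members of highest vector mean and for the others of smallest p, up to 10, whose groups did not overlap; Slc25a20, Slc25a29 and the shares within related carriers were added after their values were seen. In each list of neighbouring genes up to 3 of smallest p could be named; Tspo and Ucp2 were named after their values were seen. A member counted in the totals is not reported here. Only the limma fit was tested on simulated data, with independent noise for each gene. Such data hold no library that departs on many genes at once, as vector 1 did. Alternatives covered the pseudocount (0.1 and 0.5), the floor (none and 5 FPKM), 3 normalizations, quality weights, a replicate block and leaving out each library.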

Additional observations from a re-analysis of the deposited data

How the results depend on the processing

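No Slc25 gene passed the test in any of the 15 alternatives, where the smallest adjusted p of a member lay between 0.118 (quality weights) and 0.804 (without STYK1 1); alternatives for the lists of neighbouring genes, the role groups and the shares were added after seeing the data. The 4 members at an unadjusted p under 0.05 (2 higher, 2 lower) were 7 after quantile normalization (5 lower; all genes 9.11%), 13 with quality weights (4 higher, 9 lower; all genes 10.5% and 10.1%), 1 higher and 4 lower with no floor (all genes 3.81% and 3.68%) and also after median centring, 0 lower with equal FPKM sums, and 0 to 5 when 1 library was left out (0 to 2 higher, 0 to 5 lower; all genes 1.42 to 7.89% and 1.65 to 7.01%; 0 of each without STYK1 1). The 11 members whose groups did not overlap (4 higher, 7 lower) were 13 to 17 when 1 library was left out (all genes 28.0 to 38.0%). Of these, 4 to 9 were higher (all genes 16.6 to 20.6%) and 8 to 10 lower (all genes 11.4 to 17.4%). With equal FPKM sums 6 were higher and 2 lower (all genes 24.5% and 3.95%). After median centring 2 were higher and 8 lower (all genes 10.4% and 12.5%). After quantile normalization 2 were higher and 6 lower (all genes 11.7% and 9.26%). The members' median of -0.069 was -0.11 over members of at least 5 FPKM, 0.039 with equal sums, -0.027 with quality weights and -0.082 to 0.0046 when 1 library was left out, the last value without vector 1. The ratio of the family's summed FPKM was 1 with equal sums, 0.9746 after quantile normalization and 0.9086 after median centring. It was 0.912 to 0.939 when 1 library was left out. Differences of uncalled single genes took the other sign for Slc25a17 with equal sums (0.10), quantile normalization (0.0055), quality weights (0.064), without vector 1 and without STYK1 3 (-0.059 to 0.073 over all libraries left out, 0.01 without STYK1 3), for Slc25a28 with equal sums (0.015) and without vector 1 (-0.18 to 0.022 over all libraries left out), for Slc25a33 without vector 1 (-0.29 to 0.058 likewise), and for Slc25a5 (0.012) and Slc25a3 (0.012) after quantile normalization. With quality weights, 2 neighbouring genes passed, Mpc2 and Timm10b, both lower (adjusted p = 0.0381 and 0.0381, limma-trend), among 24 of all genes (0.209%). The cause of these shifts was not tested.

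The replicate block, fitted on the numbers in the sample titles, left 3 members at an unadjusted p under 0.05, with 1 lower (all genes 7.25% and 3.32%), and 0 past the test. The numbers share no stated origin: deviations of same-numbered libraries correlated at -0.27, -0.16 and 0.11, and only STYK1 3 correlated best with its own number. Absolute depth is unknown, so the precision of the scarce members is not known.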
